A study of Mus musculus with 30 samples.

Results

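The RGK proteins (Rad, Gem and Rem) are small GTPases of the Ras superfamily that bind the beta subunits of voltage-gated calcium channels and hold back the current through them. In skeletal muscle the L-type channel is the voltage sensor that triggers contraction. Rrad (Ras associated with diabetes) encodes Rad and is known to be induced in injured and denervated muscle. Gem was first found as a gene induced in activated T cells, Rem1 is best known from heart, and Rem2 from neurons. The 4 genes were followed in 30 single muscle fibres through every non-control probe that carries one of the 4 names, which gave 5 of the 55681 different probes of the array and 4 of its 35527 gene names. They were selected on the measured levels: in an earlier look at the same arrays Rrad and Gem were lower in fibres with silenced MCU than in transfected controls, and the 2 probes of Gem disagreed. Values from that contrast are therefore given for these genes as a description with no test.

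The fibres were taken from a fast leg muscle, the extensor digitorum longus (EDL), of male CD1 mice injected at 8 weeks of age. The study changed the level of MCU, the pore of the mitochondrial calcium uniporter, with adeno-associated virus (AAV) injected into the muscle, and took fibres on day 7 or day 14. Wild type fibres (4 on each day) had no injection. MCU vector fibres (3 on day 7, 4 on day 14) received AAVMCU, silenced fibres (3 and 4) received AAVshMCU, and transfected controls (4 and 4) received a vector that the titles call AAVshLuc and the descriptions call an AAV without insert. All injected groups carried AAV, their fibres were picked for ZsGreen, and the MCU vector and silenced fibres were also chosen for their MCU level. No label says which fibres share a mouse, so p-values measure only the spread between these fibres. Wild type and MCU vector fibres of a day shared a slide, and transfected control and silenced fibres of a day shared another. Slide and group therefore cannot be told apart in any comparison across those pairs, nor slide and day between days.

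Each fibre was hybridised to 1 one-colour array. The 75th percentile of the signal lay between 82.5 and 136 units, and 49.4% to 59.5% of the probes were well above background, Agilent's call that a spot exceeds its local background. Mcu was higher in each of the 7 MCU vector fibres, and lower in each of the 7 silenced fibres, than in all control fibres of their day. All 12 fibre markers tested were well above background on every array, while 5 of 6 satellite cell markers were so on fewer than 15 arrays. Some markers of other cells were also well above background on all 30 arrays: 5 of 8 for macrophages, 3 of 7 for T cells, and 2 each of 8 for endothelium, 6 for mural cells, 7 for fibroblasts and 6 for Schwann cells. Levels below are log2 of the signal over the array's 75th percentile, so that 0 is the level of that percentile. The precision of each value is limited by the 3 or 4 arrays of a group.

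The probes are shown first because the results of Gem turn on which probe is read. All positions are on mouse build mm9 as the array files give them. The Rrad probe, A_51_P240253, lies at chr8:107152532-107152591 on the minus strand and starts at base 949 of the transcript. Both Gem probes lie on the plus strand of the same transcript: A_55_P2111790 at chr4:11641692-11641751 and A_55_P2179027 at chr4:11642081-11642140, which starts 389 bases further along. They are called here the upstream and the downstream Gem probe. The Rem1 probe, A_55_P2113078, is at chr2:152460868-152460927 and the Rem2 probe, A_51_P191909, at chr14:55098859-55098918. The whole Rrad probe and the last 30 of the 60 bases of each Gem probe read, 5′ to 3′:
Rrad, A_51_P240253: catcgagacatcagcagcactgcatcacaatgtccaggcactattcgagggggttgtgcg
Gem upstream, A_55_P2111790: cagctgaattatATTTAttattttgcaaat
Gem downstream, A_55_P2179027: tttggggtcaAATAAAgctgagctagaatc
Capitals mark ATTTA, the core of AU-rich elements, in the upstream Gem probe and AATAAA, the hexamer of polyadenylation signals, in the downstream one. On the probe strand, as marked here, 7.71% of the probes of 60 bases on the array hold ATTTA and 10.1% hold AATAAA. Counting both strands, 16.3% hold ATTTA and 13.5% hold AATAAA. The upstream Gem probe also holds AATAAA on the opposite strand, where it overlaps ATTTA. G and C make up 55% of the Rrad probe, 35% of the upstream and 40% of the downstream Gem probe. These matches describe the letters of the probes and were not tested for any function.

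Rrad was high in every transfected control fibre and in 1 MCU vector fibre, and near the 75th percentile elsewhere. It was well above background on 30 of 30 arrays. The wild type fibres lay at -0.44, -0.92, 0.75 and -0.85 on day 7 and at -0.32, -0.65, 0.16 and -0.53 on day 14. The transfected controls lay at 3.45, 3.75, 5.99 and 4.80 on day 7 and at 6.54, 4.26, 4.22 and 4.38 on day 14. The lowest control fibre was thus far above the highest wild type fibre on both days. The silenced fibres lay at 0.89, -0.03 and 0.74 on day 7 and at -0.49, -0.18, 0.22 and 1.77 on day 14, below every control fibre and overlapping with the wild type fibres. The MCU vector fibres lay at 3.70, -0.33 and -0.46 on day 7 and at 0.33, -0.09, 1.10 and -0.17 on day 14. Replicate 1 of day 7 stood within the range of the controls of its day, and the other 6 fibres stood with the silenced and wild type fibres.

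**Figure D1:**
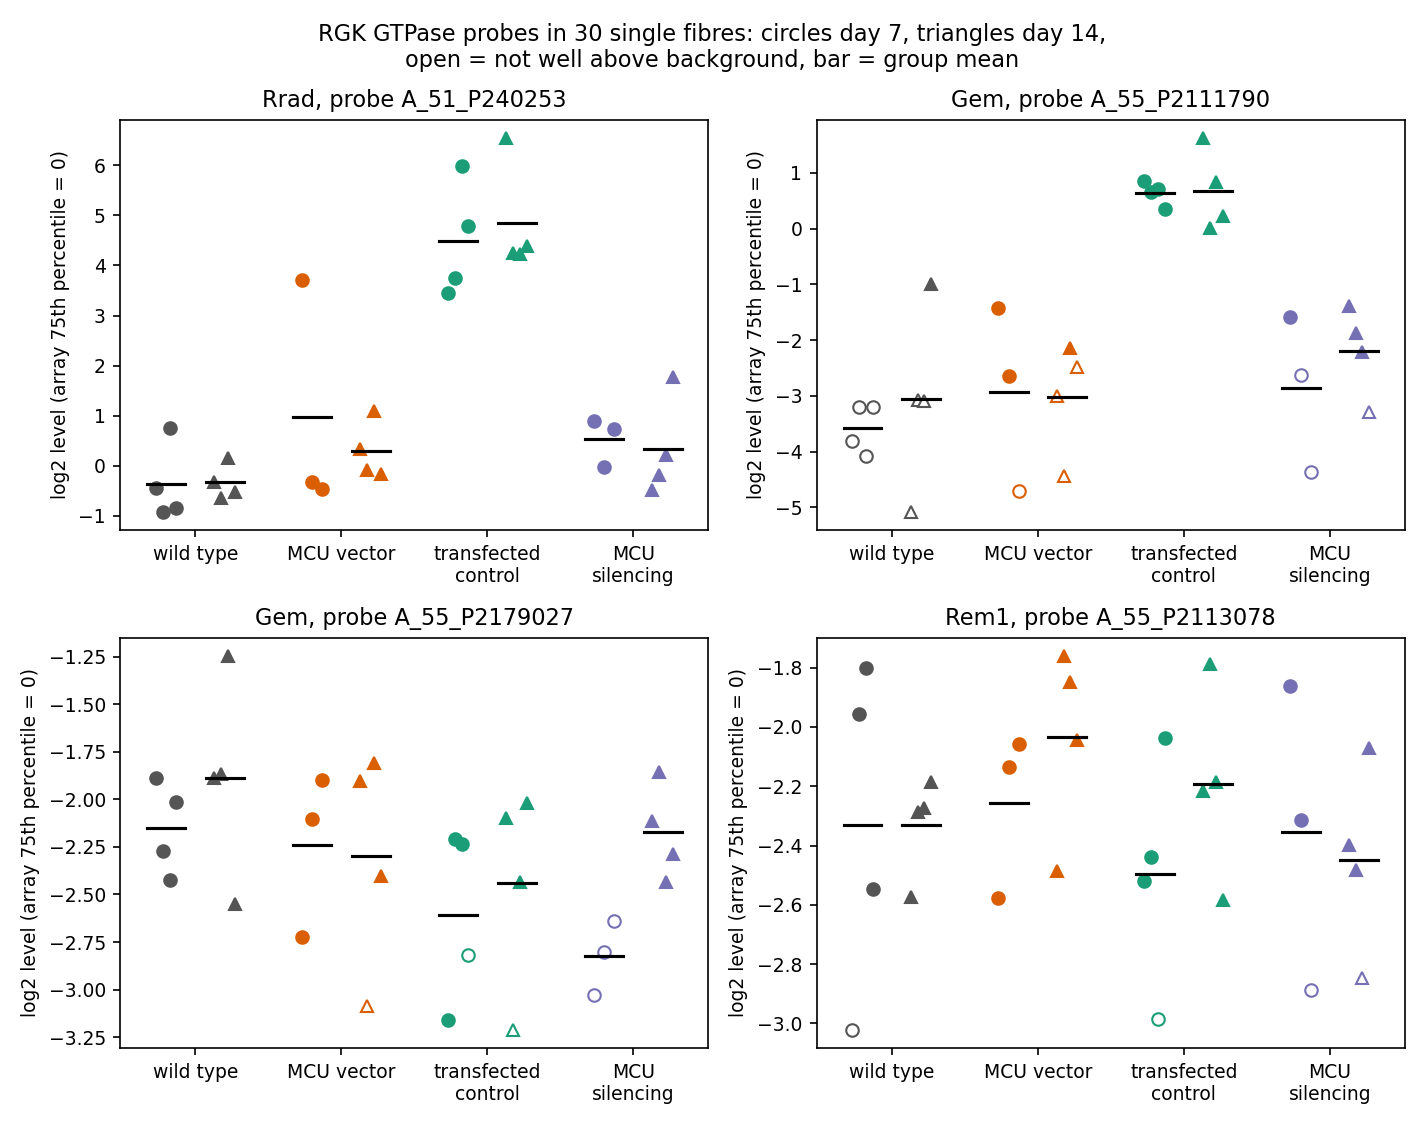
Level of each RGK probe that passed the filter, as log2 of signal over 75th percentile (y axis, a scale of its own in each panel), in 4 conditions (x axis). Each point is 1 fibre, circles are day 7 and triangles day 14, open symbols were not well above background, and bars are group means. The transfected controls stand above all wild type and silenced fibres for Rrad and the upstream Gem probe, whereas the downstream Gem probe and Rem1 show overlapping groups.

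By group mean Rrad was lowest in wild type fibres of day 7 (-0.36 ± 0.77, SD, n = 4) and day 14 (-0.33 ± 0.35, n = 4). MCU vector fibres of day 14 (0.29 ± 0.58, n = 4), silenced fibres of day 14 (0.33 ± 1.00, n = 4) and of day 7 (0.53 ± 0.50, n = 3) and MCU vector fibres of day 7 (0.97 ± 2.37, n = 3) followed. The transfected controls were highest, at 4.50 ± 1.15 on day 7 and 4.85 ± 1.13 on day 14 (n = 4 each). Each group's range overlapped with that of its neighbour in this order. Between MCU vector fibres and controls of day 7 the overlap came from replicate 1 of the MCU vector alone.

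Gem, read by its upstream probe, was likewise high in the transfected controls. These fibres lay at 0.85, 0.66, 0.71 and 0.35 on day 7 and at 1.62, 0.02, 0.85 and 0.23 on day 14, all well above background. The wild type fibres lay at -3.80, -3.21, -4.08 and -3.20 on day 7 and at -5.08, -3.07, -3.09 and -0.98 on day 14, and only the last of these 8 was well above background. The silenced fibres lay at -1.59, -2.63 and -4.36 on day 7 and at -1.39, -1.88, -2.21 and -3.29 on day 14, with 1 of 3 and 3 of 4 well above background. The MCU vector fibres lay at -1.42, -2.65 and -4.70 on day 7 and at -3.00, -4.43, -2.15 and -2.49 on day 14, with 2 of 3 and 1 of 4 well above background. Every control fibre was above each of the other 22 fibres. The order of the group means was wild type day 7, wild type day 14, MCU vector day 14, MCU vector day 7, silenced day 7, silenced day 14, control day 7 and control day 14. Neighbours in it overlapped except silenced fibres of day 14 (-2.19 ± 0.81, SD, n = 4) and controls of day 7 (0.65 ± 0.21, n = 4), whose means were 2.84 apart.

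The downstream Gem probe gave no such pattern. It was well above background on 24 of 30 arrays, against 16 for the upstream probe, and ranged from -3.21 to -1.25 over all fibres. Its means were -2.15 ± 0.24 and -1.89 ± 0.53 in wild type fibres of day 7 and 14, and -2.61 ± 0.47 and -2.44 ± 0.54 in transfected controls (SD, n = 4 each). The silenced fibres of day 7 lay at -3.03, -2.80 and -2.64, none of them well above background, and those of day 14 at -2.11, -1.86, -2.43 and -2.29, all well above it. Those of day 7 lay below all 4 wild type fibres of that day, which were on another slide, while those of day 14 overlapped with wild type. The share of all probes apart in this way is not given, so nothing is read from it. MCU vector fibres had means of -2.24 ± 0.43 (n = 3) and -2.30 ± 0.58 (n = 4). The transfected controls overlapped with the wild type and the silenced fibres on both days.

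Rem1 was dim, and the ranges of all 8 groups overlapped. Its probe was well above background on 26 of 30 arrays, with fibres from -3.02 to -1.76 and group means from -2.50 to -2.03. Rem2 was not well above background on any of the 30 arrays, so the data hold no level for it and it did not enter the tests.

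The first comparison is of MCU vector fibres with wild type fibres on the same slides. Wild type fibres had no injection, so MCU cannot be told apart in it from AAV, injection or the picking of fibres. None of the 4 RGK probes passed at an adjusted p under 0.05 (limma, Benjamini-Hochberg over 33163 probes), where 1.04% of all probes were called over both days, 0.522% on day 7 and 0.365% on day 14. Rrad was higher by 0.98 on the log2 scale over both days (SE 0.53, 95% interval -0.12 to 2.08, limma adjusted p = 0.444). The difference was 1.33 on day 7 (SE 0.78) and 0.63 on day 14 (SE 0.72). Without replicate 1 of MCU vector day 7 the value over both days was 0.30 and that of day 7 was -0.03. Without it the change of the effect from day 7 to day 14 turned from -0.71 to 0.66.

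Upstream Gem differed by 0.34 over both days (SE 0.53, interval -0.74 to 1.43, limma adjusted p = 0.838) and by 0.04 on day 14. On day 7, where all wild type fibres were dim, no fold is given (limma adjusted p = 0.999), since the difference ran from -0.10 to 1.54 without 1 fibre. Downstream Gem differed by -0.25 (SE 0.22, interval -0.70 to 0.20, adjusted p = 0.678) and Rem1 by 0.18 (SE 0.19, interval -0.21 to 0.58, adjusted p = 0.737, limma). No RGK group pair of MCU vector and wild type fibres stood apart without overlap on both days, as 0.612% of all probes did upwards and 0.495% downwards.

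Nor did any of the 4 probes pass for a change of the vector's effect between the days, where 0.184% of all probes were called, or between wild type fibres of day 14 and day 7, where 2.31% were. In wild type fibres Rrad differed between the days by 0.03 (SE 0.72), downstream Gem by 0.26 (SE 0.30) and Rem1 by 0.00 (SE 0.26). For upstream Gem no fold is given: 1 of the 8 fibres was well above background, at -0.98, and without 1 fibre the difference ran from -0.17 to 1.19. These intervals are wide: for Rrad, the difference between wild type days ran from -1.46 to 1.52.

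**Figure D2:**
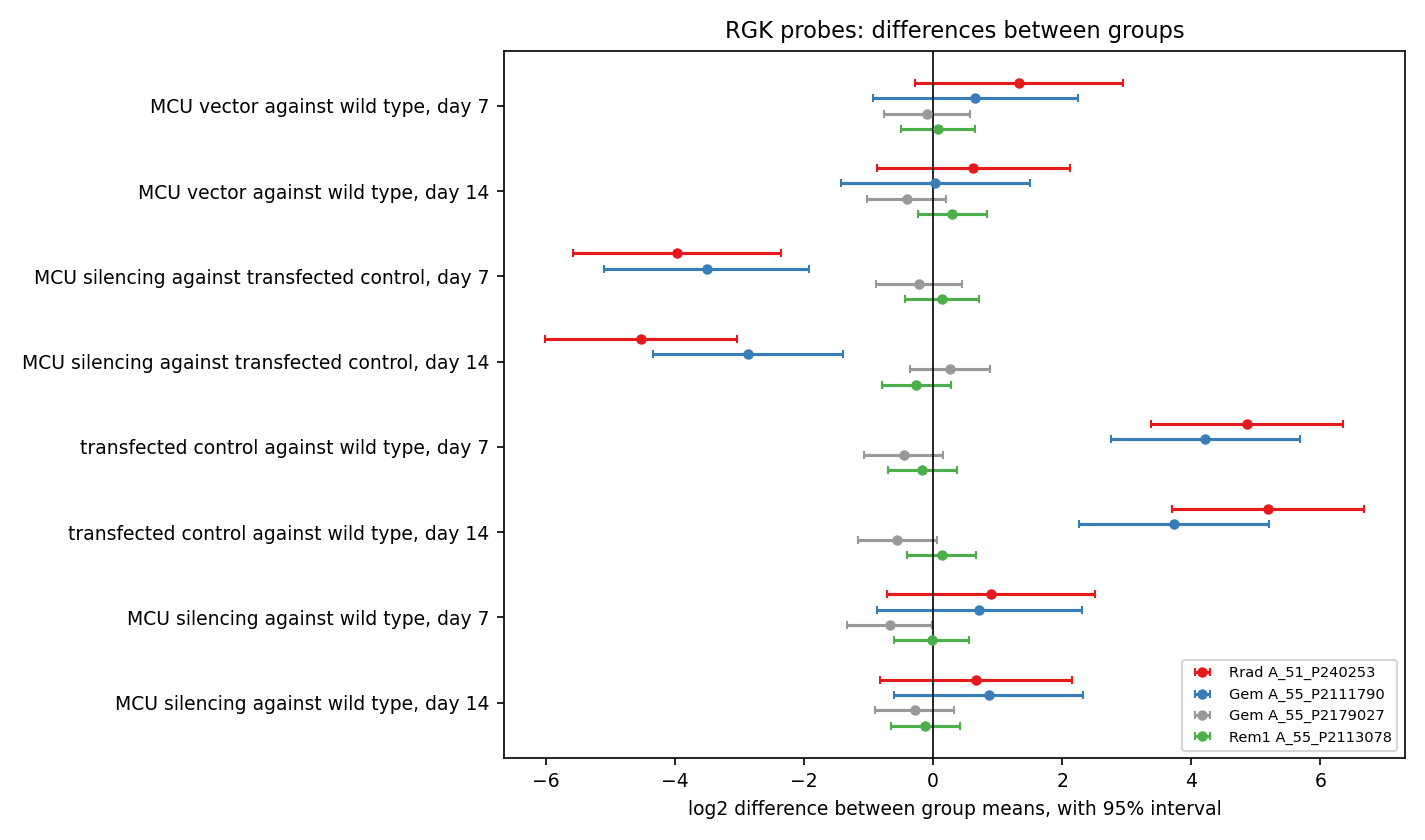
Difference between group means on the log2 scale (x axis) with its 95% interval from the limma fit, for the 4 RGK probes (colours) in 8 comparisons (y axis). Rrad and upstream Gem lie far from 0 where transfected controls are one of the groups, at values such as -3.96 and -3.51 for silencing on day 7, while in the rows without controls Rrad lies between 0.63 and 1.33 and upstream Gem between 0.04 and 0.86, with intervals that include 0. Downstream Gem lies between -0.67 and 0.27 and Rem1 between -0.26 and 0.29 over all rows. Rows with controls or silenced fibres use the fibres that chose the genes, so their intervals are a description and no test.

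The second comparison is of silenced fibres with transfected controls on the same slides, and is the one on which Rrad and Gem were picked. Rrad was 18.9-fold lower over both days, with a log2 difference of -4.24 (SE 0.53), and gave -3.96 on day 7 and -4.52 on day 14. Upstream Gem differed by -3.19 (SE 0.53) over both days, -3.51 on day 7 and -2.87 on day 14. With the normexp background correction, which adds an offset of 50 to the signal, the 3 upstream Gem values were -1.37, -1.29 and -1.45. Downstream Gem differed by 0.02 (SE 0.22) and Rem1 by -0.06 (SE 0.19) over both days. Rrad and upstream Gem were lower in silenced fibres without overlap on both days, as were 1.11% of all probes; nothing is read from this, since the contrast chose them.

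Set against wild type fibres, which lay on other slides, the transfected controls had Rrad higher by 4.86 on day 7 and 5.19 on day 14 (SE 0.72 each). With dim spots raised as described below, upstream Gem was 13.6-fold higher on day 7. It differed by 3.73 on day 14 (SE 0.71), and with normexp the differences of day 7 and 14 were 1.72 and 1.64. Rrad and upstream Gem stood apart without overlap on both days, as did 2.13% of all probes. The silenced fibres differed from wild type much less: by 0.90 and 0.66 for Rrad and by 0.86 for upstream Gem on day 14. For upstream Gem on day 7 no fold is given, since only 1 silenced fibre and no wild type fibre was well above background. Without 1 fibre that difference ran from 0.08 to 1.46. MCU vector fibres differed from transfected controls by -3.53 and -4.56 for Rrad and by -3.57 and -3.70 for upstream Gem, or -1.47 and -1.66 with normexp. These comparisons share control fibres with each other and with the one that chose the genes. Slide and group cannot be told apart in them.

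The 2 Gem probes thus gave different sizes for the same gene in the same fibres. The upstream minus the downstream estimate of the difference was -3.21 for silencing over both days, with the upstream value smaller under normexp, as given above. Over the 30 fibres the probes correlated with a Pearson r of -0.274 (Spearman rho -0.284). After the group means were taken off, r was -0.072. Both signals are dim in most groups, and the fibres of a group share their slide.

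Rrad and upstream Gem correlated across the 30 fibres with r 0.819 (rho 0.624). Among the 22 fibres that were no transfected controls r was 0.229 and rho 0.102, and after the group means were taken off all 30 fibres gave 0.213. Within the 8 controls r was 0.515. The high value thus describes mainly the step between the controls and the other fibres. Replicate 1 of MCU vector day 7, with Rrad at 3.70, had upstream Gem at -1.42, the highest of the 7 MCU vector fibres for both and, for Gem, below all 8 controls. Silenced replicate 4 of day 14, with Rrad at 1.77, had a dim upstream Gem at -3.29. Downstream Gem and Rem1 correlated with Rrad at -0.287 and -0.079.

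**Figure D3:**
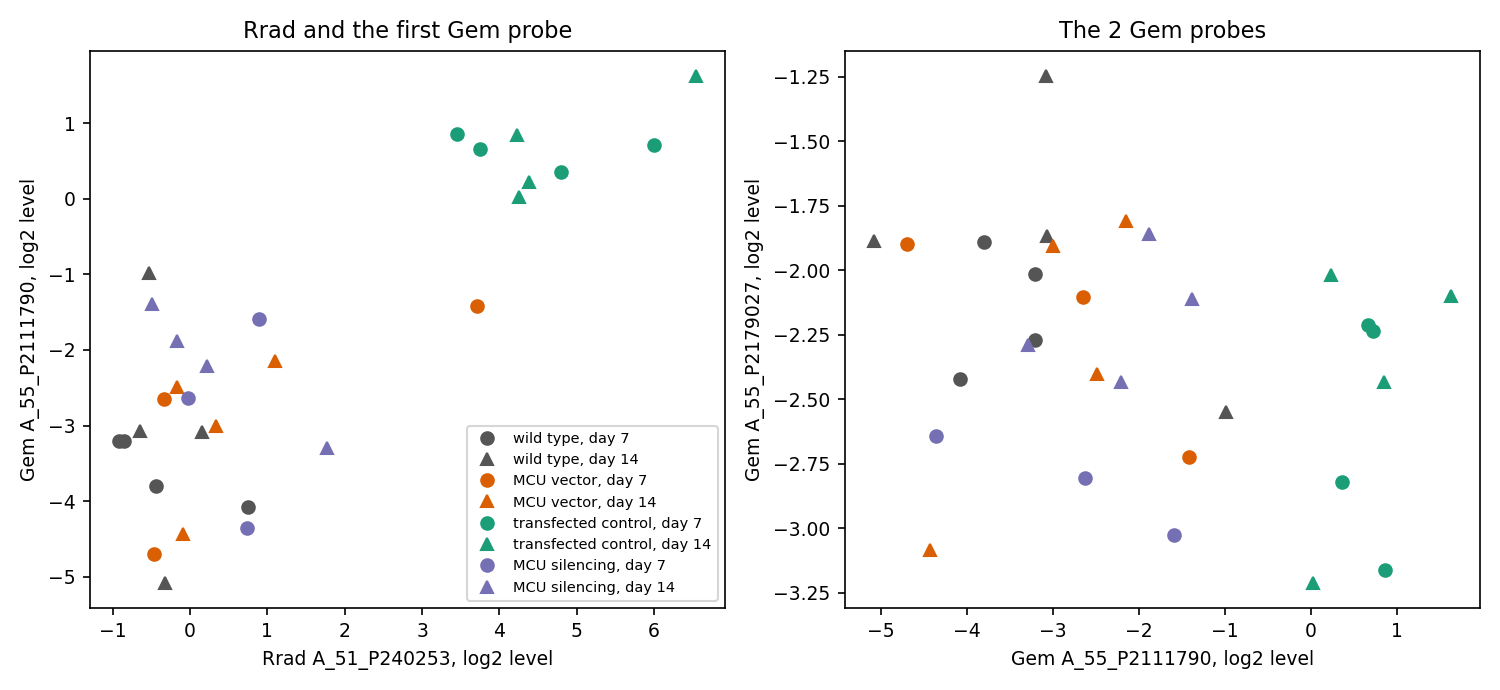
Each point is 1 of 30 fibres, coloured by condition, with circles for day 7 and triangles for day 14. Left, log2 level of the upstream Gem probe (y axis) against Rrad (x axis), where the 8 transfected controls form a separate cloud; right, the downstream (y axis) against the upstream Gem probe (x axis), where they do not separate along the y axis (r = -0.274).

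The genes whose levels followed Rrad most closely over the 30 fibres were found by Pearson correlation, with 1 probe per gene, and are given as a description. They were Csf1 (0.927), a growth factor of macrophages, the glucose transporter Slc2a1 (0.92), the cap-binding translation factor Eif4e (0.91), the uridine-cytidine kinase Uck2 (0.91) and the sphingosine kinase Sphk1 (0.909). Eno2, Mat2a, Sh3bp2, Pip5k1a and Sbno2 followed with 0.894 to 0.886. Csf1 was well above background on 8 arrays and Sh3bp2 on 14. Sphk1 had a mean level of 3.93 in the 8 transfected controls and -0.15 in the other fibres. It stood at 2.23 in replicate 1 of MCU vector day 7, against a mean of -0.87 in replicates 2 and 3. After the group means were taken off, Rrad was most like Plac9a (0.804), Slc2a1 (0.764), Eif4e (0.74), the cell cycle regulator Sertad1 (0.739) and Ces2c (0.735, well above background on 7 arrays).

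Upstream Gem was most like Eif4e (0.888), the deubiquitinase Usp28 (0.887), Zbtb2 (0.879), the histone demethylase family member Jmjd1c (0.874) and the RNA helicase Ddx3x (0.869). Uck2, Ifrd1, Ankrd1, Sphk1 and Eif1a followed with 0.86 to 0.849. Eif4e, Uck2 and Sphk1 were thus among the 10 most alike for both genes, whose patterns share the 8 high controls. Within groups, upstream Gem was most like Igf2bp2 (0.734), the sarcomere-associated kelch proteins Klhl40 (0.719) and Klhl41 (0.69), the caveolar protein Cavin4 (0.679) and Tgfbr1 (0.662).

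**Figure D4:**
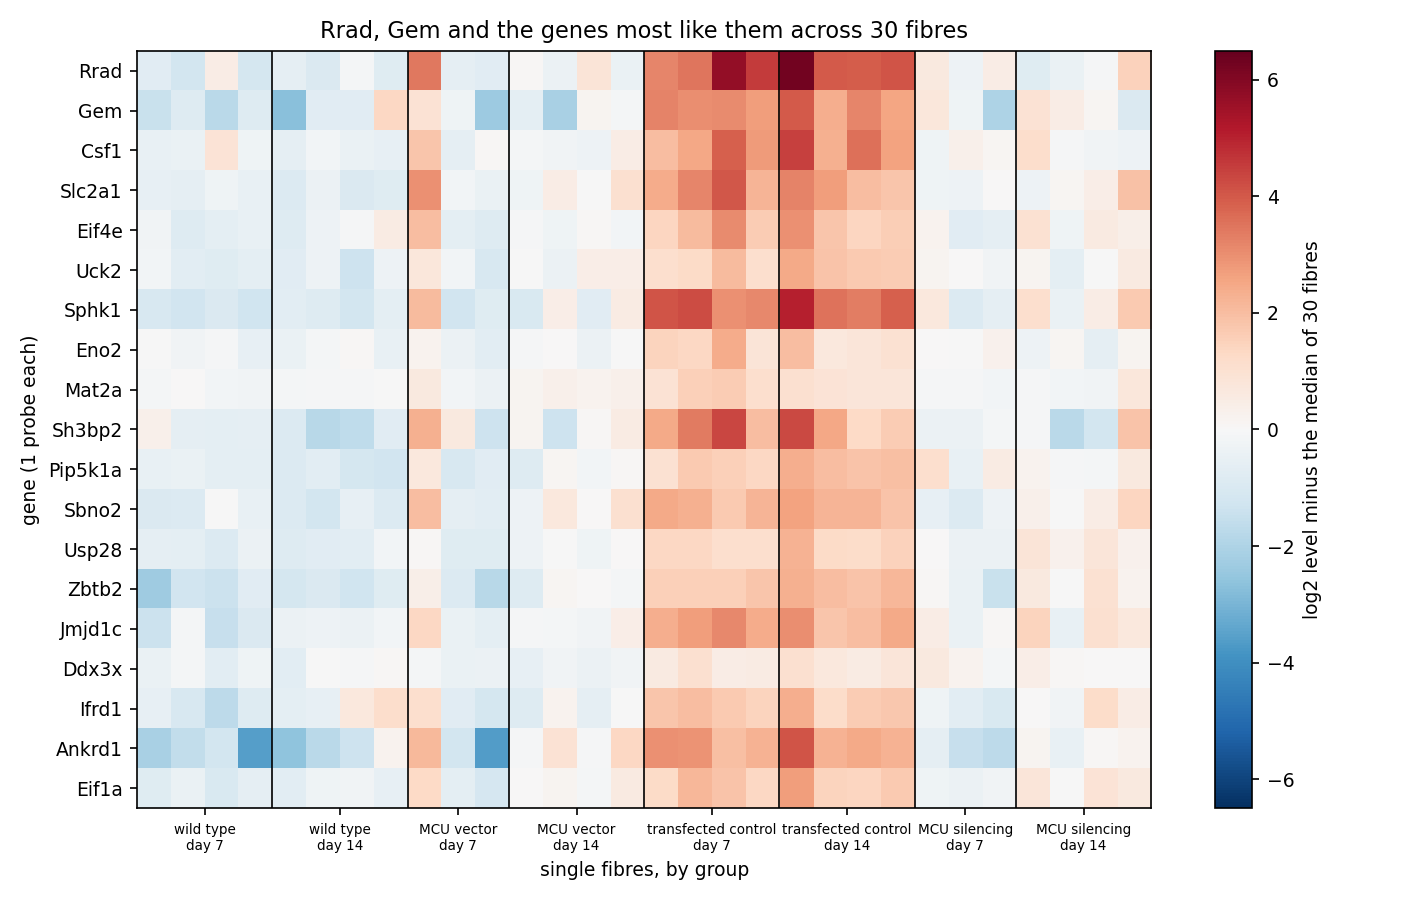
Log2 level minus the median of the 30 fibres (colour, red higher and blue lower) for Rrad, upstream Gem and the genes whose levels were most like theirs (rows, 1 probe each) in single fibres ordered by group (columns). The 8 transfected controls are red in every row, and replicate 1 of MCU vector day 7, the first fibre of its block, lies above the median in every row but that of Ddx3x.

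Few of the known partners of the RGK proteins passed the test. The lists that follow were drawn up with earlier results of these arrays known. Of 16 tested genes of the L-type channel and its triad partners, 1 rose and 1 fell with the MCU vector over both days (median 0.17, against -0.03 over all probes), where 0.784% of all probes were called higher and 0.253% lower. Cacna2d1, an auxiliary alpha2delta subunit of the channel, rose by 0.58 (limma adjusted p = 0.0371) and Cacnb4, a beta subunit of the family that RGK proteins bind, fell by 0.43 (limma adjusted p = 0.0204). The call of Cacna2d1 ended without any one of 12 of the 15 fibres, replicate 1 of MCU vector day 7 among them, and in 3 of 5 other scalings (percentile over detected probes, quantiles and the submitters' values). That of Cacnb4 ended without wild type replicate 4 or MCU vector replicates 2 or 3 of day 7, and when arrays were scaled by the median. On day 7 and 14 Cacnb4 had means of 4.02 and 3.77 in wild type, 3.56 and 3.38 in MCU vector and 3.64 and 3.50 in transfected control fibres. Cacna2d1 had 3.74 and 3.58, 4.16 and 4.31, and 4.51 and 4.00 in the same order. The controls, on other slides, thus differed from wild type in the same direction for both genes. In silenced fibres, where 7.83% of all probes were called higher and 5.83% lower, 1 of the 16 rose and 1 fell (median -0.16, against 0.05 over all probes). Cacna1c, the pore subunit of the cardiac type, rose by 0.73 (limma adjusted p = 0.00508) and Cacnb4 fell by 0.53 (limma adjusted p = 0.000774). Both calls were kept without each of 15 fibres and in 5 other scalings, over which the value of Cacna1c ran from 0.38 to 0.80. Mean levels of Cacna1c on day 7 and 14 were -1.11 and -1.12 in controls and -0.32 and -0.44 in silenced fibres. Wild type fibres, on other slides, had -0.66 and -0.39, nearer to the silenced fibres.

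Of 20 tested proteins reported to bind RGK members, such as calmodulin and the 14-3-3 family, 1 rose and 0 fell with the MCU vector (limma). There 0.784% of all probes were called higher and 0.253% lower. At an unadjusted p under 0.05 in limma, 2 were higher and 0 lower, where 5.94% of all probes were higher and 6.97% lower. The gene that rose was the kinase Camk2d, by 0.74 (limma adjusted p = 0.0419), a call that ended when any of 11 fibres was left out and when arrays were scaled by the median. In silenced fibres Nme1 rose by 0.40 and Tpm2 by 0.33, while Calm3 fell by 0.51 (limma adjusted p = 0.0122, 0.0212 and 0.0494), and the list's median was -0.22. Of all probes 7.83% were called higher and 5.83% lower in that comparison. Calm3 lost its call without any of 11 fibres and with the percentile over detected probes, quantiles or the submitters' values, and Tpm2 without silenced replicate 2 of day 7. Scaling by the array median ended the calls of Nme1 and Tpm2.

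Other small GTPases of the Ras branch were read as relatives of Rrad and Gem. With the MCU vector 0 of 22 tested genes passed in limma, and 3 were higher and 0 lower at an unadjusted p under 0.05. At that p 5.94% of all probes were higher and 6.97% lower. In silenced fibres 3 rose and 1 fell, where 7.83% of all probes were called higher and 5.83% lower (median 0.11, against 0.05 over all probes). Nkiras1 rose by 0.42 (limma adjusted p = 0.00774), a call lost when arrays were scaled by the median. Rap1b, a regulator of cell adhesion, fell by 0.57 (limma adjusted p = 0.00353). Its means on day 7 and 14 were 1.55 and 1.56 in controls, 0.94 and 1.02 in silenced fibres and 0.50 and 0.53 in wild type fibres. Rasl10b and Ralb were higher (limma adjusted p = 0.00476 and 0.0423). For each, 1 of 8 controls was well above background, with 3 and 4 of the 7 silenced fibres, so no fold is given. With normexp the differences were 0.26 for Rasl10b and 0.35 for Ralb. Ralb lost its call without any of 9 fibres, and with median scaling, quantiles or the submitters' values.

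Rrad is a gene of stressed muscle and Gem an activity-induced gene, so genes of these kinds were read as well. Both lists were drawn up with earlier results known, and silencing against these controls is the contrast that chose Rrad and Gem. Their counts and p-values there describe these fibres and are no independent support. Of 18 tested genes of denervated, injured or regenerating fibres, 8 fell and 0 rose in silenced fibres against controls over both days (limma). There 5.83% of all probes fell and 7.83% of them rose. The list's median was -0.64 over both days, -0.72 on day 7 and -0.42 on day 14 (0.05, 0.08 and 0.00 over all probes). At an unadjusted p under 0.05 in limma, 10 were lower and 0 higher, where 12% of all probes were lower and 17.5% higher. Runx1, named here after its values were seen, was tested only because the controls passed the filter, and without it 7 of 17 fell. The same controls had a median of 1.09 on day 7 and 0.54 on day 14 against wild type fibres (-0.05 and -0.06 over all probes), which lay on other slides and were not tested. Against controls the stress-induced Ankrd1 fell by 3.28, the myogenic factor Myod1 by 0.88, Mustn1 by 1.37 and the acetylcholine receptor subunit Chrnb1 by 0.55 (limma adjusted p = 0.00062, 8.45e-06, 0.0124 and 0.0162). Without 1 fibre the count of falls ran from 5, without silenced replicate 3 of day 7, to 9. The mean level of Ankrd1 was 4.57 and 4.81 in controls of day 7 and 14, 0.78 and 2.04 in silenced fibres and -0.07 and 0.68 in wild type fibres. With the MCU vector 0 of the 18 passed in limma, and 6 were higher and 1 lower at an unadjusted p under 0.05. At that p 5.94% of all probes were higher and 6.97% lower. Without replicate 1 of MCU vector day 7 the list's median went from 0.31 to 0.11.

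Of 20 immediate-early and activity-induced factors, 9 fell and 0 rose in silenced fibres against the same controls over both days (limma), with a median of -0.86. There 5.83% of all probes fell and 7.83% rose. By day the list's median was -1.22 on day 7 and only -0.24 on day 14 (0.08 and 0.00 over all probes). At an unadjusted p under 0.05 in limma, 11 were lower and 0 higher, where 12% of all probes were lower and 17.5% higher. The controls had a median of 1.22 on day 7 and 1.76 on day 14 against wild type fibres. Fosl1 was tested only because the controls passed the filter, and without it 8 of 19 fell. It was well above background in 8 of 8 controls and 1 of 7 silenced fibres. As a description, it was 8.08-fold lower in the latter with dim spots raised as described below. Klf6 fell by 1.93, Myc by 3.04 and Nr4a1 by 0.83 (limma adjusted p = 0.00036, 0.000781 and 0.00139). Those 3 calls were kept without each of 15 fibres and in 5 other scalings, while the count of falls was 6 to 9 without 1 fibre. With normexp Fosl1 differed by -1.62 and Myc by -2.02. With the MCU vector 0 of the 20 passed in limma, and 1 was higher and 3 lower at an unadjusted p under 0.05. At that p 5.94% of all probes were higher and 6.97% lower. Without replicate 1 of MCU vector day 7, 1 of the 20 factors fell, and the list's median went from -0.23 to -0.71.

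**Figure D5:**
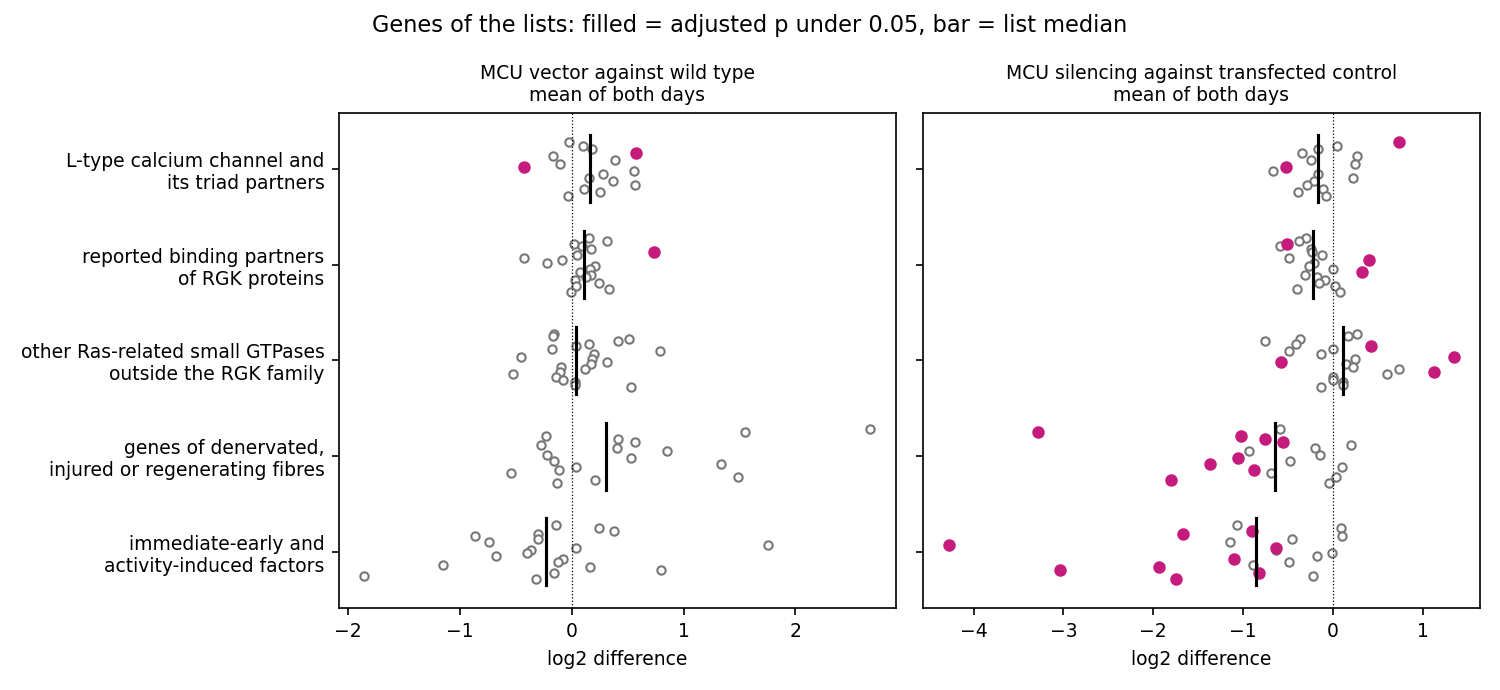
Log2 difference (x axis) of each tested gene in 5 lists (y axis), for the MCU vector against wild type (left) and silencing against transfected control (right), as means of both days. Filled points have a limma adjusted p under 0.05 and bars are list medians; in silenced fibres 8 of 18 injury genes and 9 of 20 immediate-early genes are filled, all on the lower side, Runx1 and Fosl1 among them.

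Markers of other cells were followed beside Rrad and Gem. The summed signal of 7 T cell markers over the 75th percentile was 3.28 to 3.67 in controls of day 7 and 3.72 to 3.99 in those of day 14. It was 4.76 to 5.38 and 4.65 to 5.74 in wild type fibres of day 7 and 14, 4.59 to 5.09 and 4.58 to 5.23 in MCU vector fibres, and 4.10 to 6.19 and 3.66 to 4.70 in silenced fibres. The T cell sums of all 8 controls were thus below those of all wild type and MCU vector fibres. Those fibres lay on other slides, so slide and group cannot be told apart here. For 8 macrophage markers the sum was 237 to 280.0 in controls of day 7, below all other fibres of that day. Those were at 291 to 349 in wild type, 323 to 338 in MCU vector and 295 to 339 in silenced fibres. In controls of day 14 it was 277 to 308.5, below the wild type fibres of that day (312 to 324). There it overlapped with MCU vector (304 to 357) and silenced fibres (258 to 338). For satellite cell, endothelium and fibroblast markers the sums of controls overlapped with wild type fibres on both days. For mural cells they were below wild type on day 14 only (2.126 to 3.005 against 3.046 to 4.026). For Schwann cells this was so on day 7 only (1.28 to 2.18 against 2.96 to 4.03). How many other probes separate likewise is not given. The part of these differences in the levels of Rrad and Gem was not tested. Of the 7 T cell markers Cd3d and Cd2 were well above background on no array and Cd3e, Cd4 and Lck on all 30, and of the 8 macrophage markers Mrc1 was so on none and Cd68, Csf1r, Ptprc, Cd14 and Itgam on all 30. Within a single fibre, fewer transcripts and RNA lost in amplification cannot be told apart.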

How the data were processed

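Per the labels' protocols, RNA of single fibres was reverse transcribed, amplified by PCR and hybridised to one-colour Agilent arrays. Agilent Feature Extraction 10.7.3.1 made the deposited signal intensity of each spot, background-subtracted within the array, per the file headers. Here log2 of that intensity was centred on each array's 75th percentile over non-control probes. Outlier-flagged spots (0.278%) were left out, and spots of one probe were averaged. A probe was kept if well above background on 3 arrays of a group, which left 33163 of 55681. limma 3.58.1 (R 4.3.3) fitted 8 group means over all 30 arrays, with Benjamini-Hochberg adjustment over all kept probes. On simulated data with known changes for the MCU vector comparison (33105 probes), it recovered 71 of 100 changes of log2 size 1 and 97 of 100 of size 2. There were 11 false calls. The changed probes were drawn at random from all probes simulated. These shares therefore give no rate for Rrad or upstream Gem, whose SE in this comparison was 0.53 each. Where a probe was dim on all arrays of a group, a fold is given only if the other side was well above background throughout. For that fold the dim side was set, per array, to the higher of its value and the lowest signal among probes well above background. It is no strict bound, since normexp gave smaller differences for upstream Gem and Fosl1. The submitters' own intensity table, deposited beside the scanner files with steps not stated, served as an alternative. It held each array's values on a linear scale judged from their match (r of at least 0.998), with column medians from 22.5 to 23.2.

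The members and all gene lists were chosen with earlier results of these data known. Named list genes are at most 4 per list and comparison, those past the threshold with the largest moderated statistic. Genes most like Rrad and Gem are the 10 with the highest correlation of levels and the 5 with the highest correlation of deviations from group means. Alternatives covered scaling, background, filters, weights, covariates and each fibre left out. Fibre numbers were not taken as pairs: same-numbered fibres correlated with r from -0.155 to 0.172 in 14 pairs of groups, 4 of them over 0.1.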

Additional observations from a re-analysis of the deposited data

Results flagged for a closer look

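One of the 30 probe and group combinations examined held a fibre far from the rest of its group. Rrad in transfected control day 14 replicate 1 stood at 6.54, against 4.22 to 4.38 in the other 3 controls of that day, a gap of 0.931 of the group's range. The limit used is passed by chance in about 1 of 20 groups. The fibre also had the highest upstream Gem level of all, 1.62. Without it the silencing difference of Rrad on day 14 was -3.96. The cause was not tested. Rrad in replicate 1 of MCU vector day 7 also stood apart, at 3.70 against -0.33 and -0.46, but was not flagged by the limit used.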

How the results depend on the processing

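No RGK probe passed the threshold in any tested comparison, nor in any of 487 such values under the alternatives. The differences of Rrad and upstream Gem in silenced fibres kept their direction throughout, and Rrad lay between -5.00 and -3.46. Upstream Gem moved by more than the spread between fibres only with normexp, to -1.37 over both days, -1.29 on day 7 and -1.45 on day 14. Without 1 fibre it ran from -3.51 to -2.81 over both days, -4.14 to -2.76 on day 7 and -3.14 to -2.50 on day 14. Near 0 some signs turned. For upstream Gem with the MCU vector on day 14 this was so with the percentile over detected probes (-0.01), normexp (-0.02), dim spots at the floor (-0.05) and array weights (-0.12), and for Rem1 on day 7 with normexp (-0.01). Between wild type days Rrad gave -0.02 scaled by the median. There Rem1 gave -0.05 scaled by the median, -0.01 with the detected percentile, -0.06 with quantiles and with the submitters' values, -0.02 with normexp and 0 when the percentage of detected probes was a covariate.

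Leaving out 1 fibre turned further signs. For the MCU vector over both days upstream Gem ran from -0.03 to 0.79. On day 7 Rrad ran from -0.03 to 2.05, upstream Gem from -0.10 to 1.54, downstream Gem from -0.26 to 0.15 and Rem1 from -0.16 to 0.25. On day 14 upstream Gem ran from -0.64 to 0.73. For the change of the effect between days Rrad ran from -1.42 to 0.66 and upstream Gem from -1.5 to 0.13. Between wild type days Rrad ran from -0.15 to 0.40, upstream Gem from -0.17 to 1.19 and Rem1 from -0.23 to 0.18.

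The counts behind the background percentages moved more. For the MCU vector over both days 344 probes became 632 with normexp, 1588 with array weights and 212 to 408 without 1 fibre, the fewest without MCU vector day 7 replicate 2 (214 without replicate 1, 218 without wild type day 14 replicate 3). On day 7, 173 became 370 with array weights. On day 14, 121 became 228 with normexp, 568 with array weights, 79 with no filter, 72 with only the groups compared, 37 with the detected share as covariate and 44 (without wild type day 14 replicate 3) to 200 (without replicate 2) without 1 fibre. For the change between days 61 became 98 with normexp, 33 with probes detected on 15 arrays, 119 with array weights and 37 (without MCU vector day 7 replicate 3) to 70 without 1 fibre. For wild type days 767 became 1407 with normexp, 1908 with array weights, 501 with only the groups compared and 267 (without wild type day 14 replicate 3) to 774 without 1 fibre. The cause of these moves was not tested.

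With the replicate number as a block, Rrad gave 0.98 and upstream Gem 0.38 for the MCU vector over both days, with 329 probes called, and no call of an RGK probe changed; in 7 of 14 pairs a group's fibres were most like their own number. List counts without the 2 fibres that stood apart for Rrad were added after the data were seen. Dim signal limits upstream Gem outside the controls, and Rem2 everywhere.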
